A study of Mus musculus with 48 samples.

Results

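Rolipram and Benzamide were the only 2 compounds in the series with a protection ratio above 2, and their arrays are described here against 10 control arrays. They were chosen by the ratio printed in the sample labels, 2.76 for Rolipram and 2.01 for Benzamide, and not by any expression value. Each compound has 1 array, so they make up 2 of 48 arrays and 2 of the 38 compound arrays. The next highest ratio was 1.87 and the lowest 0.61, and all 10 controls carry a ratio of 1.00. The labels do not say how the ratio was measured, nor at which dose either compound was given. Both compounds were dissolved in DMSO and both are labelled as enzyme inhibitors of the protective class.

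The cells were cortical neuron cultures of CD-1 mice grown for 7 days. Compound or control medium was present for 1 h before NMDA, and again for 16 h after it. NMDA was applied for 1 h in a hypotonic salt solution to all groups, the controls included, so no culture without NMDA enters any comparison. The 5 mock controls received water and the 5 vehicle controls DMSO. The study asked which expression patterns chemically distinct neuroprotective molecules trigger. RNA was hybridised to Illumina bead arrays, and a value below is a log2 intensity after normalisation.

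Rolipram is a pyrrolidone carrying a catechol diether ring, and blocks phosphodiesterase 4 (PDE4), the enzyme family that breaks down cyclic AMP in neurons and glia. When cyclic AMP accumulates, protein kinase A phosphorylates the transcription factor CREB, which binds the palindrome TGACGTCA in promoters of genes such as somatostatin. Benzamide is a benzene ring with a carboxamide group that mimics nicotinamide, and blocks poly(ADP-ribose) polymerases (PARPs), which spend NAD on marking broken DNA. In neurons overexcited through NMDA receptors, strong PARP activation drains NAD and can lead to a form of cell death named parthanatos. The compounds are not analogs of each other.

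Promoters of 3 genes that were high on the Rolipram array are printed because they show whether the letters CREB binds are present. All are RefSeq promoters on mouse build GRCm38.p6, minus strand, running 5′ to 3′ from 250 bases before to 50 bases after the gene's start. Capitals mark TGACGTCA, or, where that is missing, its 5 letters TGACG or CGTCA. Scg2 lies at chr1:79439977-79440276, Sst at chr16:23890795-23891094 and Trh at chr6:92244601-92244900.
Scg2: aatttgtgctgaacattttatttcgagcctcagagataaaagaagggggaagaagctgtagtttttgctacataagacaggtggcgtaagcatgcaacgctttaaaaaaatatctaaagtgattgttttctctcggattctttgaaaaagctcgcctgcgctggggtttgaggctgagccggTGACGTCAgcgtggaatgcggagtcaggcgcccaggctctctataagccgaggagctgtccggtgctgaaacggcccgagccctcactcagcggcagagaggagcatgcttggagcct
Sst: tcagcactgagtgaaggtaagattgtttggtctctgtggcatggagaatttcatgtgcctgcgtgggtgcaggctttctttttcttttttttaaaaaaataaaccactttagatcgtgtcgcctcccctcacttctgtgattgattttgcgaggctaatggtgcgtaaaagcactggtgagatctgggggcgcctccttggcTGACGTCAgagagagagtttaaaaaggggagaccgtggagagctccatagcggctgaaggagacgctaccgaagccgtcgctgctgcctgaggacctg
Trh: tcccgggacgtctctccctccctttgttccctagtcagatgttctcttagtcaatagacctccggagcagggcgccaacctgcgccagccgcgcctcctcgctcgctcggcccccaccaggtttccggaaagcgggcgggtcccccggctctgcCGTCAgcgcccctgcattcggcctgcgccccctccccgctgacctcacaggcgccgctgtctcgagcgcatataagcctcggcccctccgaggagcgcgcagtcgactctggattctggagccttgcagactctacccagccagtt
The full palindrome begins 68 bases before the start of Scg2 and 48 bases before that of Sst, and Trh holds only the shorter form. Among 32851 mouse promoters of the same 300 bases, 588 (1.79%) hold TGACGTCA and 6837 (20.8%) hold TGACG on either strand, a count that includes the full palindrome. A match describes these letters and is not evidence of binding. Scg2 and Sst belong to the list of CREB target genes described below, so their matches say nothing about the genes high with Rolipram as a group. Whether the palindrome is more frequent in that group was not tested.

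The arrays carried 46632 probes, of which 17815 were detected on enough arrays to be tested, covering 9869 named genes. The median raw intensity was 43.8 on the Rolipram array, 48.1 on the Benzamide array and 40.7 to 80.1 on the controls. A detection p-value of under 0.01 was reached by 34% of probes for Rolipram, 30.8% for Benzamide and 29.3% to 38.3% in the controls. The defining neuron markers were present: 20 of 20 measured markers were detected on the Rolipram array and 17 on the Benzamide array. The markers detected on all 10 controls at once also numbered 17, so a single control may have had more. The cultures were mixed, since 8 of 8 microglia markers and at least 10 of 11 oligodendrocyte markers were detected on both compound arrays. So were 9 of 9 members of the motile cilia list, which holds cilia genes and Ttr of the choroid plexus. In such bulk RNA, fewer cells of a type and less RNA per cell cannot be told apart.

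Vehicle control 1 stood apart from the other controls. Its median correlation with them was 0.929, while the other 9 controls had 0.949 to 0.981, and its mean difference over the neuron markers from the control mean was 0.92, against -0.41 to 0.19 in the other 9. Its own value, or the result without it, is given beside the results that it moves. The arrays came on 8 chips of 6 positions. Rolipram shared its chip with mock control 4 and Benzamide with vehicle control 2, so compound and chip position cannot be told apart, and values against the 5 other arrays of the same chip are given where they matter.

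No probe passed the test between Rolipram and the controls. Between Benzamide and the controls 4 of 17815 probes passed, 3 higher and 1 lower (limma with Benjamini-Hochberg adjustment, adjusted p under 0.05). The share called over all tested probes was therefore 0% for Rolipram and 0.0225% for Benzamide. At an unadjusted p under 0.05 there were 1435 probes (8.06%) for Rolipram and 2304 (12.9%) for Benzamide, and the smallest adjusted p for Rolipram was 0.372. With 1 array per compound, the spread came from the 10 controls and the lone array was assumed to vary as they do. The labels do not state whether the control samples were separate cultures, so these p-values measure the spread between the samples, which may be technical. Both comparisons use the same 10 controls.

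By size alone the picture was broader. A probe was counted when it lay 1 log2 unit or more off the mean of the controls and beyond all 10 of them, a rule set after the values were seen. By this rule Rolipram had 183 probes higher (1.03%) and 201 lower (1.13%), and Benzamide 195 higher (1.09%) and 482 lower (2.71%). Their totals of 384 and 677 ranked 26 and 18 among the 38 compound arrays, whose median was 609.5 and whose range was 25 to 2649. The 2 highest protection ratios thus did not go with the largest departures from the controls. Fewer of these probes stood apart from the arrays of the same chip. Of Benzamide's 482 lower probes, 24 (4.98%) were also at least 1 log2 unit below the mean of the 5 other arrays on its chip, and of Rolipram's 201 lower probes 68 (33.8%) were. For the higher probes these shares were 56 of 195 (28.7%) for Benzamide and 37 of 183 (20.2%) for Rolipram. With median scaling in place of quantile normalisation the median of all probes moved by -0.13 for Rolipram and -0.37 for Benzamide. The higher probes then made up 12.8% of Rolipram's count and 2.16% of Benzamide's, in place of 47.7% and 28.8%. Since this scaling moves all probes, medians of gene lists under median scaling are given below less the median of all probes under it.

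The counts of list members beyond all 10 controls, at any size, are to be read against the same counts over all tested probes. For Rolipram 9.63% of probes lay above all 10 controls and 14% below, and for Benzamide 18.4% lay above and 14% below. Against the control mean, 49.5% of probes were higher and 50.5% lower with Rolipram, and 54.3% higher and 45.7% lower with Benzamide.

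**Figure D1:**
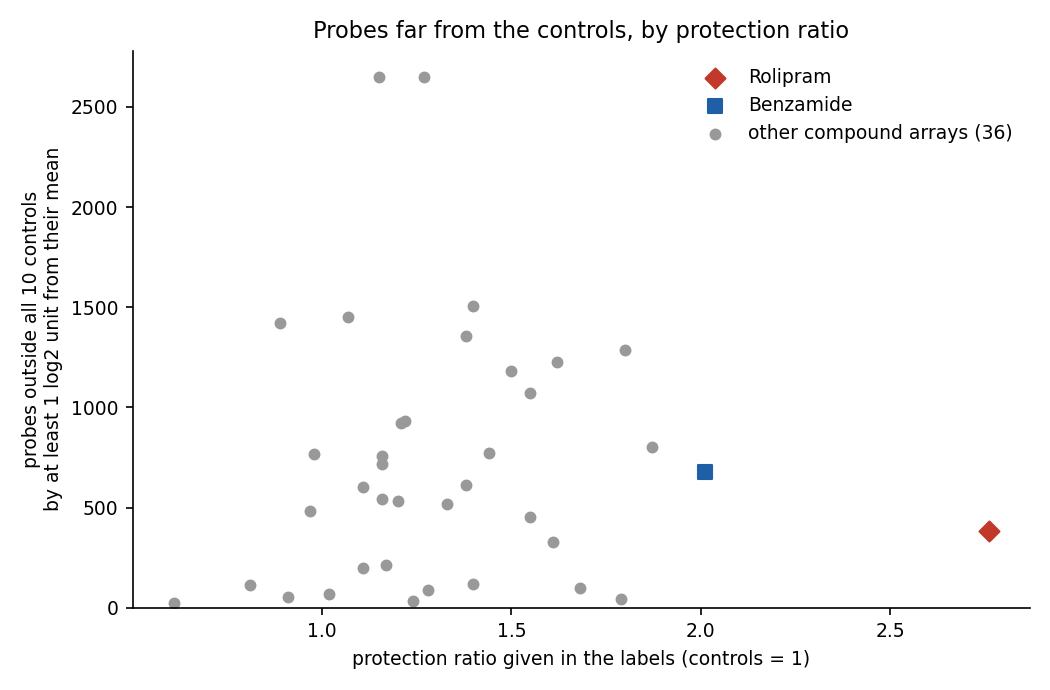
Number of probes 1 log2 unit or more off the mean of the controls and beyond all 10 of them (vertical axis) against the protection ratio of the label (horizontal axis), 1 point for each of the 38 compound arrays. Rolipram, at a ratio of 2.76, had 384 such probes and Benzamide, at 2.01, had 677, both inside the range of 25 to 2649 over all compound arrays.

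Csrp1, a LIM-domain protein of the actin cytoskeleton that is best known from smooth muscle, was the largest of the 4 changes that passed for Benzamide. Its intensity was 4.39 on the Benzamide array, where it was not detected (detection p-value 0.839), against a lowest control of 7.46, a median of 8.10 and a highest of 8.76, with detection on 10 of 10 controls. The groups did not overlap. Csrp1 fell at least 5.66-fold, the bound being taken from the dimmest probes still detected on that array, with a measured log2 difference of -3.75 ± 0.336 (SE) and a limma adjusted p of 0.00114. On the Rolipram array it had 8.64. The 5 other arrays of the Benzamide chip averaged 8.13, so the low value was not shared by the chip. It was not particular to Benzamide either: of the 36 other compound arrays, 2 lay more than 1 log2 unit below the lowest control, Clofibric acid at 5.09 and Citicoline at 5.39. The adjusted p was 0.000244 to 0.00448 when any single control was left out. With chip as a block the Csrp1 difference was -3.80 but its adjusted p was 0.588, and with chip position as a block -3.87 and 0.314.

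Tnfrsf11a, which encodes RANK, the receptor for RANK ligand, rose on the Benzamide array. It had 6.95 there, against a lowest control of 5.10, a median of 5.46 and a highest of 5.58, and 5.40 on the Rolipram array. Its log2 difference was 1.55 ± 0.213 (SE), with a limma adjusted p of 0.0476. Benzamide was the highest of the 38 compound arrays, and 5 of 10 controls detected the gene.

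Eif4ebp2, a repressor of cap-dependent translation that is abundant in brain, also rose. Its intensity was 9.47 with Benzamide, against 7.85, 8.04 and 8.32 as the lowest, median and highest control, and 8.07 with Rolipram. The Eif4ebp2 difference was 1.43 ± 0.198 (SE; limma adjusted p 0.0476). Other arrays of the Benzamide chip were also above the controls in this gene, with a mean of 8.71, so against its own chip the Benzamide array was higher by 0.76.

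Zbtb38, a zinc-finger protein that binds methylated DNA, was detected with Benzamide and on 0 of 10 controls. It had 6.25 with Benzamide and 4.58 with Rolipram, against 4.44, 4.68 and 5.06 as the lowest, median and highest control. The change was at least 1.75-fold higher, with a measured log2 difference of 1.54 ± 0.22 (SE) and a limma adjusted p of 0.0486. The 3 rises were close to the threshold. For Tnfrsf11a, Eif4ebp2 and Zbtb38 the call was lost whenever a control other than vehicle control 1 was left out, with adjusted p-values of 0.0557 to 0.109, and under median scaling (0.692). It was lost too against the 5 vehicle controls alone (0.55 to 0.634) and with chip as a block (0.912). The differences themselves were of about the same size there, at 1.69, 1.46 and 1.61 against the vehicle controls and 1.63, 1.28 and 1.70 with the chip block. Under median scaling they were smaller, at 1.14, 1.06 and 1.12.

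**Figure D2:**
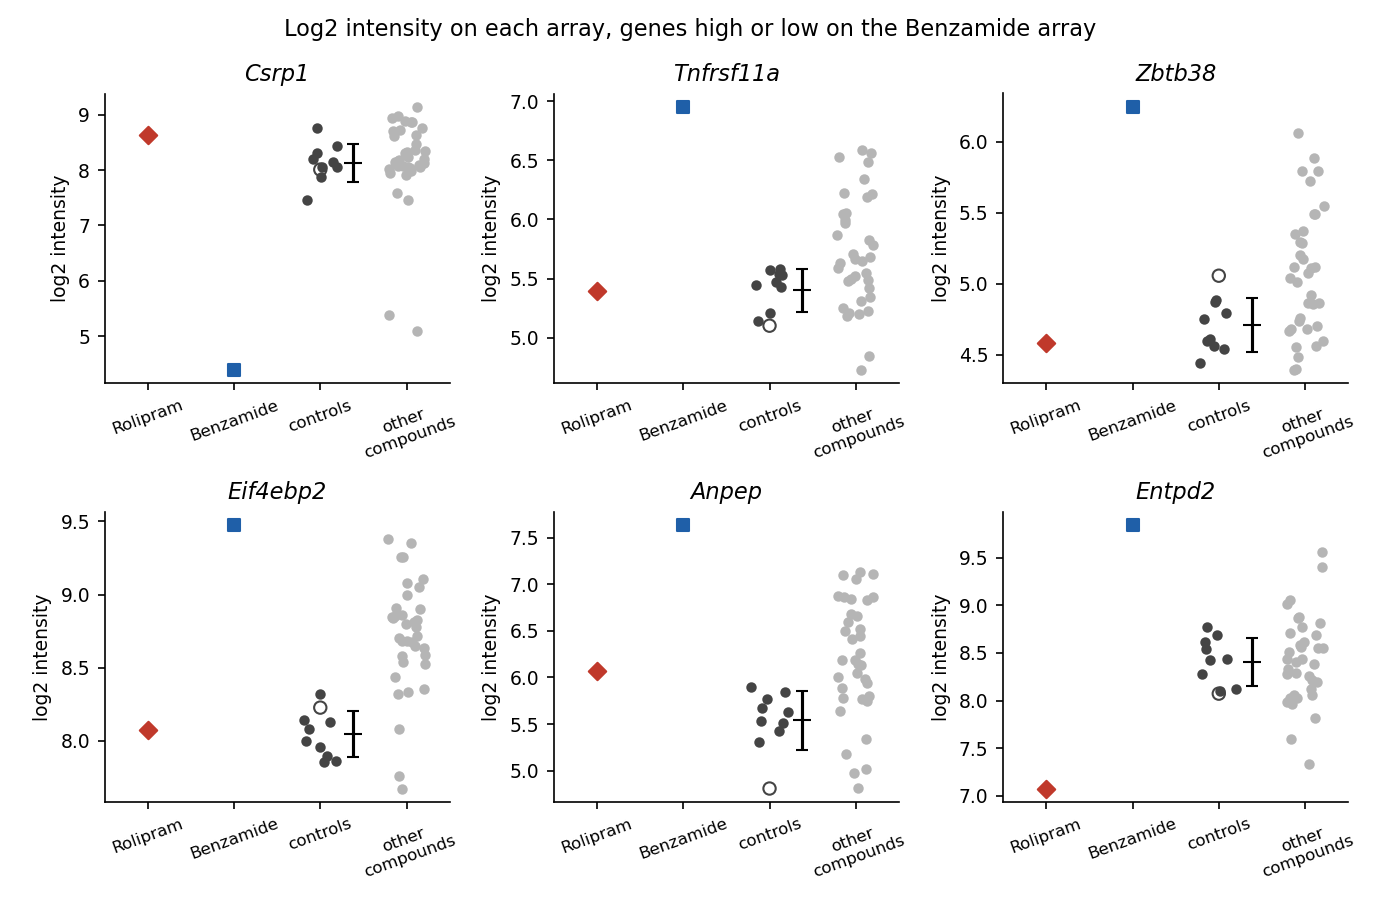
Log2 intensity of Csrp1, Tnfrsf11a, Zbtb38, Eif4ebp2, Anpep and Entpd2 on the Rolipram array, the Benzamide array, the 10 controls (with their mean and SD, and vehicle control 1 drawn open) and the 36 other compound arrays (grey). Csrp1 sits at 4.39 with Benzamide below a lowest control of 7.46, and the other 5 genes sit above every control with Benzamide.

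Anpep, or aminopeptidase N, a surface peptidase of pericytes and myeloid cells, had the fifth smallest p and did not pass. Its intensity was 7.63 with Benzamide and 6.07 with Rolipram, against 4.81, 5.58 and 5.90 in the lowest, median and highest control. The Anpep difference of Benzamide was 2.09 ± 0.313 (SE), with a limma adjusted p of 0.054, and 0.00695 without vehicle control 1, which held the lowest value. Tet2, an enzyme that oxidises methylated cytosine in DNA, had 6.36 with Benzamide and 5.16 with Rolipram, against 4.74 to 5.40 in the controls (adjusted p 0.064). Its log2 difference with Benzamide was 1.38, and 0 of 10 controls detected it.

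Without vehicle control 1, the Benzamide comparison called 55 probes (0.309%), 40 higher and 15 lower. The higher ones included probes of Sp4, Kcnd2 and Mef2c that are not the brightest of their genes. The brightest probes of these genes were not called. Sp4, a transcription factor enriched in neurons, had 7.33 with Benzamide, against 4.87 to 5.75 in the 9 controls and 5.98 in vehicle control 1. Its log2 difference was 2.07 (limma adjusted p 0.0284) without that control and 1.99 (0.102) with it. Kcnd2, a subunit of the A-type potassium channel, had 7.58 with Benzamide against 5.67 to 6.41 in those controls, but vehicle control 1 itself had 7.06, and the adjusted p was 0.173 with all 10. Mef2c, a transcription factor of activity-dependent neuronal genes, had 6.34 against 4.77 to 5.42 and 5.61 in vehicle control 1, with a log2 difference of 1.21, or 1.17 (0.134) with all 10 controls. Among the lower ones, Coq10b, a mitochondrial protein that binds coenzyme Q, had 7.0 with Benzamide against 8.04 to 8.99 and 7.89 in vehicle control 1. Its log2 difference was -1.67 (limma adjusted p 0.0412) without that control and -1.59 (0.136) with it. Atp5pb, a subunit of ATP synthase, had 9.77 against 10.70 to 11.19, and vehicle control 1 had 10.51 (adjusted p 0.124 with all 10). Over the list of oxidative phosphorylation genes Benzamide's median difference was 0.03 over 19 members, near that of all probes (0.04), with 10 above and 9 below 0.

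Other genes lay far outside the controls with Benzamide without passing. The highest log2 difference was that of Tmem68, a transmembrane protein, which had 9.63 with Benzamide and 4.49, not detected, with Rolipram, against 4.42, 7.83 and 9.13 as the lowest, median and highest control. Its log2 difference of Benzamide was 2.85 (limma adjusted p 0.485), 6 of 10 controls detected it, and the difference ran from 1.11 to 5.16 over the settings tried. Fcgr4, an activating Fc receptor of myeloid cells, had 9.25 with Benzamide and 7.57 with Rolipram, against 6.51, 8.03 and 8.54 as the lowest, median and highest control (log2 difference of Benzamide 1.34, adjusted p 0.341). Slc40a1, the iron exporter ferroportin, had 8.76 with Benzamide against 6.48 to 8.08, a log2 difference of 1.48. Bach1, a heme-sensing repressor, had 8.25 with Benzamide against 5.73 to 6.86, a log2 difference of 1.89. Gpx3, a secreted glutathione peroxidase, had 8.03 with Benzamide, 5.82 with Rolipram and 6.11 to 7.11 in the controls. Lcn2, an acute phase protein of reactive astrocytes, went the other way, with 6.4 with Benzamide and 8.14 with Rolipram, against 6.81, 8.19 and 9.44 in the lowest, median and highest control. Fcgr4, Slc40a1 and Gpx3 were highest of the 38 compound arrays with Benzamide. The low values of Snx1, Pmpcb and Slc25a3, with log2 differences of -2.21, -2.06 and -1.89, came to -0.64, -0.59 and -0.42 against the other arrays of the Benzamide chip. Snx1 and Pmpcb were not detected with Benzamide, which bounds them at least 2.61-fold and 3.02-fold lower than the control mean (limma adjusted p 0.368 and 0.379).

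Of Benzamide's own targets, Parp1 lay within the control range and none passed. Parp1, the main DNA damage sensor of the family, had 9.33 with Benzamide and 9.04 with Rolipram, against 8.93, 9.25 and 9.60 as the lowest, median and highest control. The Parp1 difference was 0.07 ± 0.232 (SE) for Benzamide (limma adjusted p 0.91) and -0.22 for Rolipram (0.8). Parp2, its close relative in repair, differed by -0.04 for Benzamide (0.935) and -0.10 for Rolipram (0.88).

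Of 19 PARP family and PAR hydrolase genes 16 were measured, and 0 passed for either compound. With Benzamide 6 of 16 lay above all 10 controls and 4 below, beside 18.4% and 14% of all probes, and the list's median difference was 0.14 beside 0.04 over all probes. Parp3, a relative that acts at double-strand breaks, had 9.38 with Benzamide and 8.85 with Rolipram, against 8.55 to 9.16 in the controls. Macrod2, which removes mono-ADP-ribose from proteins, had 6.05 with Benzamide, the lowest of the 38 compound arrays, and 7.12 with Rolipram, against 6.45, 6.85 and 7.24 in the lowest, median and highest control (log2 difference of Benzamide -0.80, adjusted p 0.196). Parp12, an interferon-inducible member, was below every control with Benzamide at 5.88 and above every control with Rolipram at 7.43, with controls at 6.18 to 7.33. Its second probe gave -0.44 for Benzamide and -0.14 for Rolipram, so its probes disagree in sign for Rolipram.

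The genes that make or spend NAD gave a similar picture. Of 19 listed, 14 were measured and 0 passed, with a median difference of 0.20 for Benzamide and -0.01 for Rolipram. Nampt, the rate-limiting enzyme of NAD salvage, had 4.55 with Benzamide, where it was not detected, and 5.38 with Rolipram, against 4.64, 5.29 and 5.66 as the lowest, median and highest control, with 6 of 10 controls detecting it. Sirt5, a mitochondrial NAD-dependent deacylase, had 8.21 with Benzamide against 7.56 to 7.91, and Sirt7, a nucleolar one, 9.98 against 8.99 to 9.85. Under median scaling, less the median of all probes, the Benzamide medians were 0.05 for the PARP list and 0.09 for the NAD list.

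No gene passed for Rolipram with all 10 controls, and the genes with the smallest p are given as values. Gpc3, a glypican that binds growth factors, was not detected with Rolipram at 4.94, was detected on 10 of 10 controls at 5.89, 6.24 and 6.6 as the lowest, median and highest, and had 6.37 with Benzamide. It was at least 1.86-fold lower with Rolipram, with a measured log2 difference of -1.30 and a limma adjusted p of 0.372. Akr1b10, an aldo-keto reductase, had 8.28 with Rolipram and 9.59 with Benzamide, against 9.10, 9.37 and 9.55 in the controls (log2 difference of Rolipram -1.08). Ccdc102a, a coiled-coil protein, had 8.11 with Rolipram against 8.75 to 9.30, and Cyp4f14, a cytochrome P450 that breaks down leukotriene B4, 6.35 against 7.09 to 7.57. Together with Entpd2, described with the pair, these had an adjusted p of 0.426. All 5 lay below every control.

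Leaving out vehicle control 1 gave 7 calls for Rolipram (0.0393%), 4 higher and 3 lower, all with a limma adjusted p of 0.0411. Scg2, the precursor of the neuropeptide secretoneurin and a granule protein, whose promoter holds the CREB palindrome, was among them. It had 8.0 with Rolipram and 6.87 with Benzamide, against 5.67, 6.03 and 7.68 in the lowest, median and highest of 10 controls. The 7.68 was vehicle control 1, and the other 9 reached 6.37. The Scg2 difference of Rolipram was 1.83 ± 0.525 (SE; adjusted p 0.522) with all controls and 2.00 without vehicle control 1.

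Trh encodes the precursor of thyrotropin-releasing hormone. Its intensity was 7.26 with Rolipram and 6.46 with Benzamide, against 4.78, 5.34 and 6.33 as the lowest, median and highest control, and 2 of 10 controls detected it. Both compounds lay above every control. The Trh difference of Rolipram was 1.96 ± 0.422 (SE; limma adjusted p 0.426), and 2.07 without vehicle control 1, which had the 6.33. Benzamide's difference was 1.15 (0.309). Rolipram had the second highest Trh value of the 38 compound arrays.

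Chl1, a cell adhesion molecule of neurite growth, had 7.68 with Rolipram and 6.79 with Benzamide, and the controls had 5.71 to 6.28 apart from vehicle control 1 at 7.71. With all controls the Chl1 groups overlapped. Kcnma1, the pore subunit of the calcium-activated BK potassium channel, had 6.4 with Rolipram and 5.41, not detected, with Benzamide, against 4.68, 4.94 and 5.68 in the lowest, median and highest control. Its 3 probes gave 0.73 to 1.38 for Rolipram. On the low side Abi3, an adaptor of actin remodelling that is expressed in microglia, was not detected with Rolipram at 4.84, at least 1.78-fold lower than the mean of 10 controls. It had 6.52 with Benzamide, 6.05 to 6.57 in the 9 controls and 5.19 in vehicle control 1. A probe of Mxra8, a matrix receptor of the immunoglobulin family, had 5.77 with Rolipram and 7.59 with Benzamide, against 6.85 to 7.33 in the 9 controls and 6.73 in vehicle control 1. It is not the brightest probe of that gene. The seventh call, with 6.77 against 7.90 to 8.46, has no gene symbol.

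**Figure D3:**
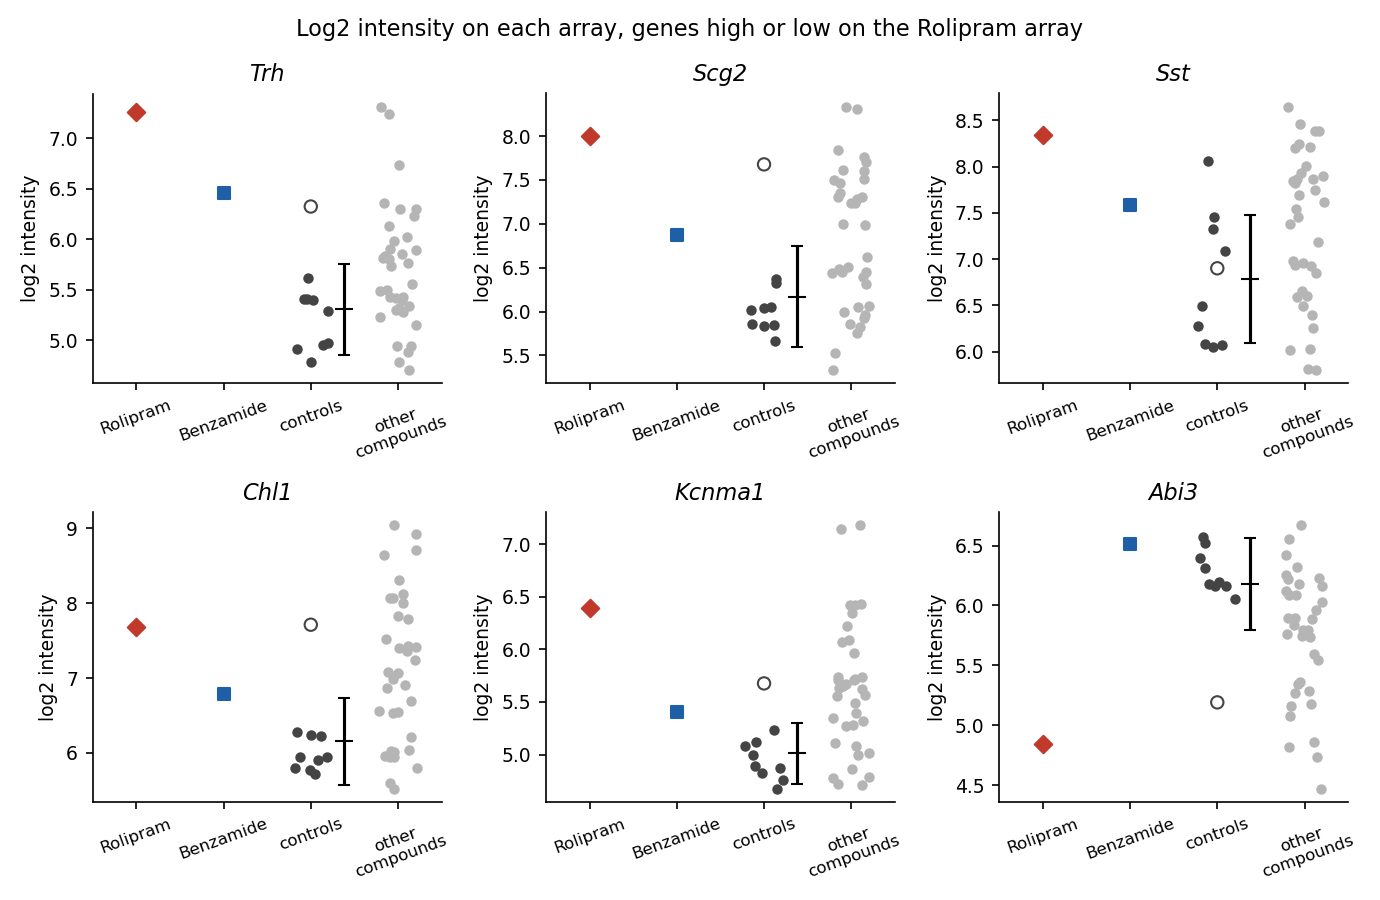
Log2 intensity of Trh, Scg2, Sst, Chl1, Kcnma1 and Abi3 on the Rolipram array, the Benzamide array, the 10 controls (with their mean and SD, and vehicle control 1 drawn open) and the 36 other compound arrays (grey). In Scg2 and Chl1 the open circle, at 7.68 and 7.71, lies beside the Rolipram array while the other 9 controls end at 6.37 and 6.28.

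Sst, somatostatin, the textbook target of CREB, had 8.34 with Rolipram and 7.58 with Benzamide, against 6.06, 6.70 and 8.06 as the lowest, median and highest control. Rolipram lay above every control and Benzamide within them. The Sst differences were 1.56 ± 0.629 (SE; limma adjusted p 0.581) for Rolipram and 0.80 (0.559) for Benzamide. Of 19 measured CREB target genes, 15 had a promoter in the table, 3 of these held the full palindrome (Sst, Scg2 and Dusp1) and 11 held at least the short form.

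The rest of the CREB list did not follow Sst and Scg2 on the Rolipram array. Of 36 listed targets 19 were measured and 0 passed for either compound. The list's median difference was -0.01 for Rolipram, with 9 members above 0 and 3 above all controls, and 0.45 for Benzamide, with 14 above 0 and 6 above all controls, beside -0.00457 and 0.04 over all probes. Of all probes, 9.63% lay above all controls for Rolipram and 18.4% for Benzamide. Dusp1, an immediate early phosphatase and the third carrier of the palindrome, had 8.78 with Rolipram and 9.14 with Benzamide, against 8.64, 9.0 and 10.08 in the lowest, median and highest control. Pdyn, the dynorphin precursor, had 6.04 with Rolipram, the lowest of the 38 compound arrays, and 7.22 with Benzamide, against 6.11 to 7.10 in the controls. Crem, the cyclic AMP responsive modulator, had 5.67 with Rolipram and 5.85 with Benzamide, against 5.14 to 5.83. Under median scaling Benzamide's median over the CREB list, less that of all probes, was 0.42.

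The targets of Rolipram were close to the controls. Pde4a had 5.59 with Rolipram and 5.76 with Benzamide, against 4.92, 5.29 and 6.02 as the lowest, median and highest control, a log2 difference of 0.26 for Rolipram (limma adjusted p 0.815) and 0.42 for Benzamide (0.514). Pde4b, the isoform best known from immune cells, differed by -0.21 (0.834) for Rolipram and -0.14 (0.823) for Benzamide. Pde4d differed by -0.04 (0.966) for Rolipram and 0.45 (0.411) for Benzamide, and Pde4c had no tested probe. Pde2a, a phosphodiesterase stimulated by cyclic GMP, had 6.35 with Rolipram and 5.60, not detected, with Benzamide, against 4.66 to 5.38 in 9 controls and 6.84 in vehicle control 1.

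Upstream of CREB, 22 of 31 genes of cyclic AMP synthesis and response were measured and 0 passed, with medians of 0.19 for Rolipram and 0.28 for Benzamide. Under median scaling, less the median of all probes, they were 0.05 for Rolipram and 0.22 for Benzamide. Adcy8, a calcium-stimulated adenylyl cyclase, had 7.12 with Rolipram and 8.29 with Benzamide, against 7.75, 8.03 and 8.34 in the lowest, median and highest control (log2 difference of Rolipram -0.91, adjusted p 0.513). Gnas, the stimulatory G protein subunit, had 9.32 with Benzamide, the lowest of the 38 compound arrays, and 10.15 with Rolipram, against 9.63 to 10.30. Its 3 probes gave -0.76 to 0.50 for Benzamide and so disagree in sign. Crebbp, the coactivator that binds phosphorylated CREB, had 6.78 with Benzamide and 5.65 with Rolipram, against 4.94 to 5.96 in the controls (log2 difference of Benzamide 1.32, adjusted p 0.208).

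**Figure D4:**
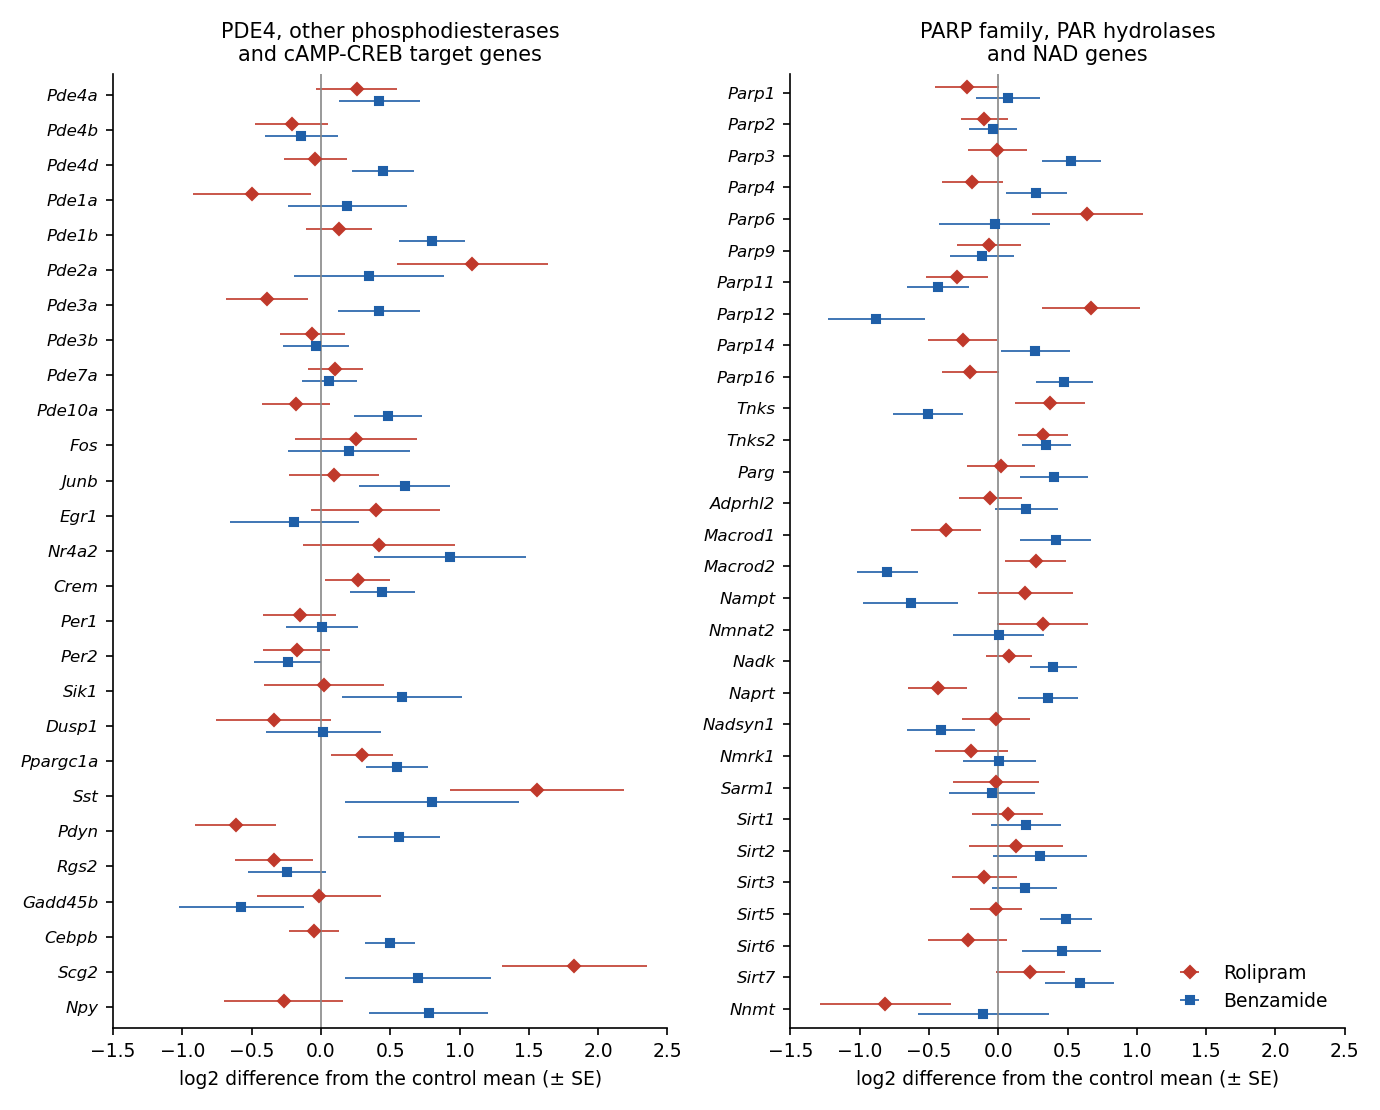
Log2 difference from the 10 controls with its SE (horizontal axis) for measured phosphodiesterases and CREB targets at the left and PARP and NAD genes at the right, for Rolipram and Benzamide. Sst and Scg2 stand at 1.56 and 1.83 for Rolipram, while Parp1 stands at -0.22 for Rolipram and 0.07 for Benzamide.

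General neuron markers were above the control mean on the Rolipram array in every measured member, while their mean lay inside the range of the controls and other neuronal lists were divided. Of 22 general neuron markers 20 were measured, 20 of 20 were above the control mean, 7 lay above all controls, beside 9.63% of all probes, and 0 passed. Their median log2 difference was 0.75 for Rolipram and 0.13 for Benzamide, where 11 of 20 were above the mean, beside -0.00457 and 0.04 over all probes. The list's mean difference was 0.83 for Rolipram and 0.12 for Benzamide, and -0.41 to 0.92 in the controls, with vehicle control 1 at 0.92. Without that control Rolipram's was 0.93 and the 9 controls ranged from -0.31 to 0.29. Rolipram ranked 15 of the 38 compound arrays, and the other 12 protective compounds had a median of 0.74. Of 21 synapse genes 17 were above the control mean with Rolipram (median 0.57), and of 8 inhibitory neuron markers 7 (median 0.45). The excitatory neuron markers did not share this, with 4 of 10 above the control mean, 6 below it, 2 below all controls and a median of -0.04. Rolipram's synapse list mean of 0.54 lay inside the control range of -0.29 to 0.90, whose upper end was vehicle control 1. Measured from the other 9 controls it was 0.64, against a highest of 0.19. Its inhibitory list mean was 0.49, against -0.37 to 0.43 in the controls. These means ranked 19 and 15 of the 38 compound arrays, and the other 12 protective compounds had medians of 0.595 and 0.57. For Benzamide the medians were 0.25 for synapse genes, 0.17 for inhibitory and 0.25 for excitatory markers.

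Sncb, a presynaptic synuclein, had 8.29 with Rolipram and 6.87 with Benzamide, against 5.73, 6.05 and 8.23 as the lowest, median and highest control (log2 difference of Rolipram 1.98, limma adjusted p 0.538, and 0.0706 without vehicle control 1). Gap43, a growth cone protein, had 11.42 with Rolipram and 9.28 with Benzamide, against 8.98, 10.08 and 10.89. Both were above every control with Rolipram and within the control range with Benzamide. Ndrg4, a neuronal protein of vesicle transport, had 9.47 with Rolipram against 6.45 to 8.65, and Prmt8, a brain arginine methyltransferase, 7.22 against 4.52 to 6.19.

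Genes of cell division lay mostly below the control mean with both compounds, and of the pair only Rolipram was low in the motile cilia list. Astrocyte and oligodendrocyte markers did not stand apart with Rolipram. Over 15 astrocyte and radial glia markers the median was -0.11 for Rolipram and 0.25 for Benzamide, and the list means of -0.06 and 0.14 lay inside the control range of -0.27 to 0.35. Of 13 measured cell division genes 11 were below the control mean with Rolipram and 13 with Benzamide, and 0 passed. With Rolipram 6 lay below all controls and with Benzamide 2, beside 14% of all probes for each. The median was -0.89 for Rolipram and -0.34 for Benzamide. The list means of -0.76 with Rolipram and -0.46 with Benzamide lay inside the control range of -0.84 to 0.45. Measured from the other 9 controls Rolipram's was -0.85, against -0.94 in vehicle control 1 and a lowest value of -0.84 in the 9. It ranked 21 from the highest of the 38 compound arrays, and the other 12 protective compounds had a median of -1.11. Tk1, a thymidine kinase of S phase, had 7.34 with Rolipram and 8.46 with Benzamide, against 8.08, 9.02 and 9.42 as the lowest, median and highest control. All 9 measured members of the motile cilia list, Ttr included, were below the control mean with Rolipram, 4 of them below all controls (14% of all probes). Their median was -0.99 and the list mean -1.01, against a lowest control of -0.68. Rolipram's list mean ranked 28 from the highest of the 38 compound arrays, and the other 12 protective compounds had a median of -0.77. With Benzamide all 9 were above the control mean, with a median of 0.27, or 0.19 under median scaling less the median of all probes. Tekt1, a structural protein of cilia, had 8.54 with Rolipram and 10.02 with Benzamide, against 8.73, 9.93 and 10.22. Ttr, transthyretin of the choroid plexus, had 10.39 with Rolipram and 12.28 with Benzamide, against 9.82, 12.44 and 13.26, and so overlapped the controls on both arrays.

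The contractile and matrix genes were mostly low with Rolipram, to a degree that depended on the control compared. Over 8 measured fibroblast, mural and endothelial markers the median was -0.94 for Rolipram and 0.02 for Benzamide, with 0 passing. With Rolipram 7 of 8 were below the control mean and 6 of 8 were detected. Of the 8, 2 lay below all controls (14% of all probes) and 1 above all of them (9.63%). The other 12 protective compounds had a median list mean of -0.55, against -0.965 for Rolipram. Acta2, smooth muscle actin, had 10.07 with Rolipram and 12.17 with Benzamide, against 10.98, 11.89 and 13.67 as the lowest, median and highest control, and the 13.67 was the control on Rolipram's own chip. Other genes low with Rolipram were not members of this list. Igf2, a growth factor of meninges and vessels, had 8.23 with Rolipram and 9.76 with Benzamide, against 8.54, 10.30 and 11.63. Kcnj16, a glial potassium channel, had 6.10 with Rolipram, the lowest of the 38 compound arrays, and 8.07 with Benzamide, the highest of them, against 6.83, 7.79 and 8.09 (log2 difference of Rolipram -1.60, limma adjusted p 0.426). P2ry13, a microglial receptor for ADP, was not detected with Rolipram at 4.99, at least 3.07-fold lower than the control mean, and had 7.23 with Benzamide, against 6.0, 7.02 and 7.47, and its adjusted p of 0.426 was 0.0507 without vehicle control 1.

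Oligodendrocyte genes lay mostly above the control mean with Benzamide. Of 14 listed 11 were measured, 9 lay above the control mean and 5 above all controls, beside 18.4% of all probes, 0 passed, and the median was 0.60 for Benzamide and -0.03 for Rolipram. Under median scaling Benzamide's median, less that of all probes, was 0.55. Its list mean of 0.40 ranked 2 among the 38 compound arrays and lay inside the control range of -0.45 to 0.43, whose upper end was vehicle control 1. Measured from the other 9 controls it was 0.45, above their highest at 0.41. Cnp, a myelin enzyme, had 8.60 with Benzamide and 7.46 with Rolipram, against 7.55, 7.86 and 8.46 as the lowest, median and highest control. Sox10, the transcription factor of the lineage, had 10.57 with Benzamide and 9.93 with Rolipram, against 9.42, 9.84 and 10.32. Microglia markers had a median of 0.50 with Benzamide and -0.34 with Rolipram over 8 members. With Benzamide 7 of 8 were above the control mean and 1 above all controls, beside 18.4% of all probes. The list means of 0.36 with Benzamide and -0.21 with Rolipram lay inside the control range of -1.14 to 0.54, whose lower end was vehicle control 1. Measured from the other 9 controls Benzamide's was 0.24, below their highest at 0.415. Cx3cr1, the fractalkine receptor, had 10.57 with Benzamide and 9.44 with Rolipram, against 8.92, 9.90 and 10.39.

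In 2 further lists the members pointed one way on the Rolipram array. All 12 measured cholesterol synthesis genes were above the control mean, with a median of 0.40 and 3 above all controls (9.63% of all probes), and all 10 interferon-stimulated genes were below it, with a median of -0.35 and 5 below all controls (14% of all probes). Vehicle control 1 moved the same way in both lists. The cholesterol list mean was 0.39 with Rolipram and 0.49 in vehicle control 1, and the interferon list mean -0.36 with Rolipram and -0.32 in that control. Measured from the other 9 controls, Rolipram had 0.44 for cholesterol synthesis, against a highest of 0.22, and -0.40 for the interferon list, against a lowest of -0.21. For Benzamide the medians were 0.16 for cholesterol synthesis and -0.19 for the interferon list. Its interferon list mean of -0.35 was close to Rolipram's, with 7 of 10 members below the control mean and 3 below all controls (14% of all probes). Measured from the other 9 controls it was -0.39. In the other 12 protective compounds the median list mean was -0.43 for the interferon list and 0.13 for cholesterol synthesis. From the highest of the 38 compound arrays, Rolipram ranked 22 in the interferon list and 12 in cholesterol synthesis. Msmo1, a sterol oxidase, had 11.29 with Rolipram and 9.44 with Benzamide, against 10.25, 10.88 and 11.03 as the lowest, median and highest control, so the compounds lay on opposite sides of the controls. Cyp51, the sterol demethylase, had 10.76 with Rolipram and 9.45 with Benzamide, against 10.07, 10.25 and 10.48, and its other probe differed by -0.14 for Benzamide. Benzamide was the lowest of the 38 compound arrays in both, with limma adjusted p-values of 0.121 and 0.137. Bst2, an interferon-induced membrane protein, had 9.91 with Rolipram and 10.10 with Benzamide, against 9.99, 10.80 and 11.16.

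**Figure D5:**
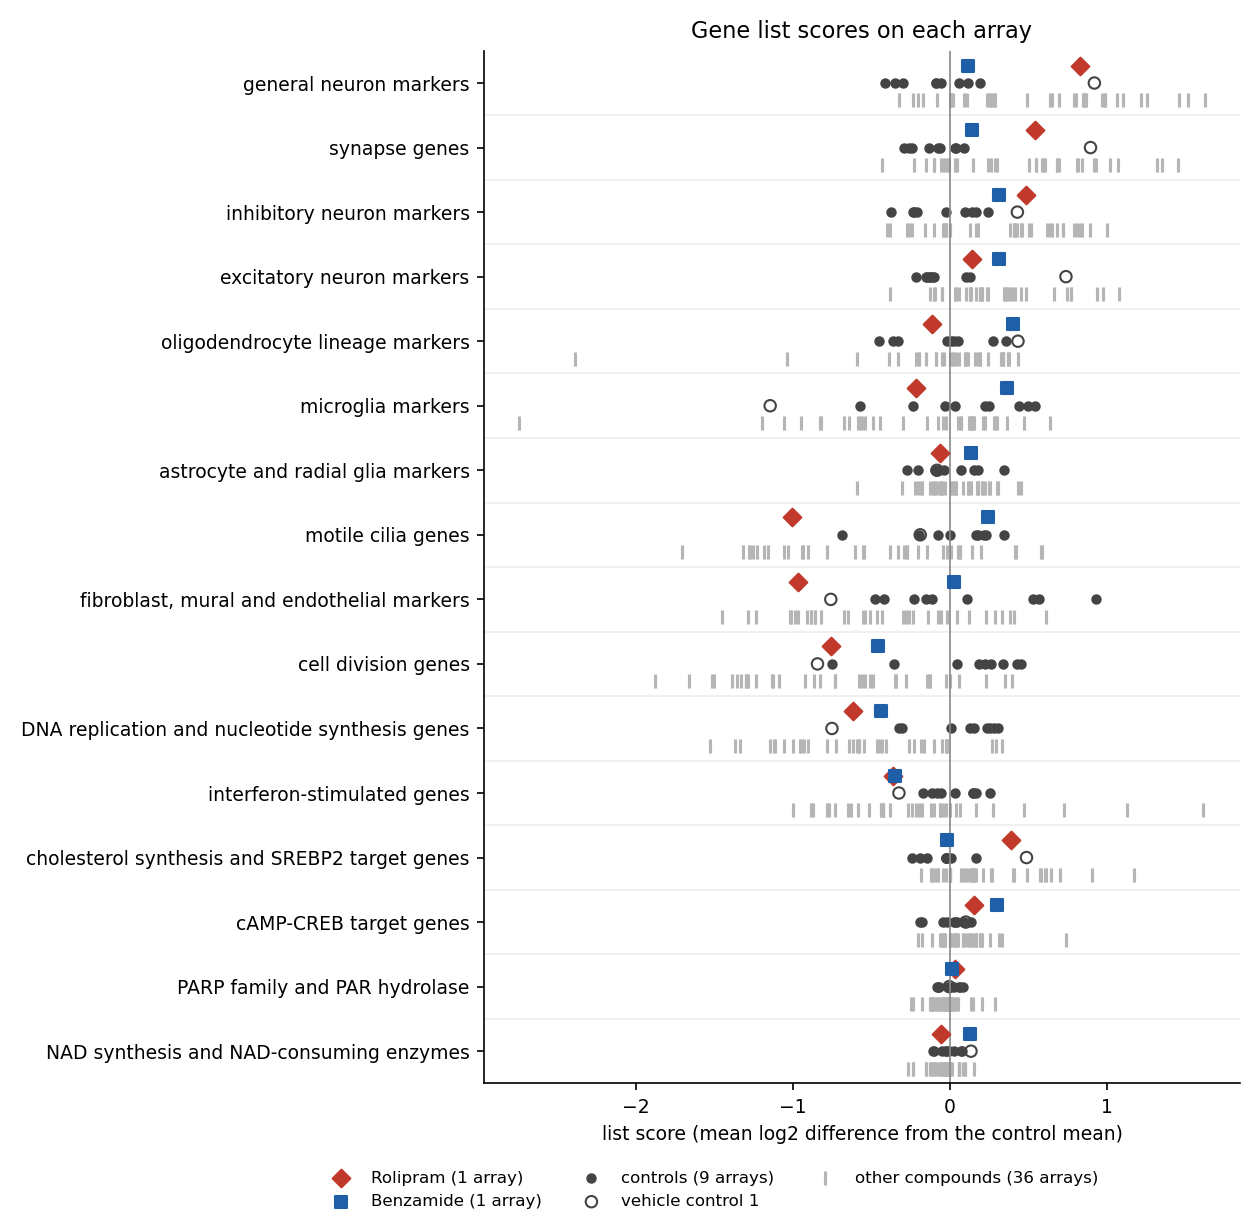
Mean log2 difference from the control mean over the measured members of 16 gene lists, for Rolipram (diamond), Benzamide (square), 9 controls (dots), vehicle control 1 (open circle) and the 36 other compound arrays (ticks). Rolipram lies at 0.83 in neuron markers, below the open circle at 0.92, and at -1.01 in motile cilia genes, below the lowest control at -0.68.

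The direct comparison of the pair, the only pair tested, called 2 of 17815 probes (0.0112%), 1 higher and 1 lower with Rolipram, with 2795 (15.7%) at an unadjusted p under 0.05. The doses are not given, so a difference is one between these cultures. Entpd2, an enzyme that hydrolyses extracellular ATP, had 7.08 with Rolipram and 9.84 with Benzamide, the lowest and the highest of the 38 compound arrays, while the 10 controls had 8.07, 8.43 and 8.77 as the lowest, median and highest. The compounds lay on opposite sides of every control. The Entpd2 difference of Rolipram minus Benzamide was -2.77 ± 0.354 (SE), with a 95% interval of -3.53 to -2.00 and a limma adjusted p of 0.0307, although neither compound passed against the controls (0.426 for Rolipram and 0.111 for Benzamide). Csrp1 differed by 4.26 ± 0.453 (SE), with an interval of 3.28 to 5.24 and an adjusted p of 0.00807, a difference carried by the low Benzamide value. Both calls were lost with chip as a block and under median scaling, and the count was 1 when mock control 1, 2 or 5 or vehicle control 4 or 5 was left out.

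None of the genes described as high with Rolipram passed in the direct comparison with all 10 controls. Scg2 differed by 1.13 with a 95% interval of -0.41 to 2.66, Sst by 0.76 with an interval of -1.08 to 2.6 and Trh by 0.81 with an interval of -0.43 to 2.04. These 3 intervals leave room for a difference of over 2 log2 units as well as for none. Other intervals lay above 0 without passing after adjustment. Gap43 differed by 2.14 with an interval of 0.69 to 3.59 (limma adjusted p 0.227), Prmt8 by 2.73 with 1.24 to 4.22 (0.176), Ndrg4 by 2.94 with 0.80 to 5.08 (0.25) and Kcnma1 by 0.99 with 0.14 to 1.84 (0.291). Tnfrsf11a differed by -1.56, with an interval of -2.18 to -0.94 that lies below 0 and an adjusted p of 0.13. Without vehicle control 1 the pair had 25 calls (0.14%), 10 higher and 15 lower with Rolipram. Among the higher were probes of Lin7b, a synaptic scaffold protein, and of Scn2a, a neuronal sodium channel. Neither is the brightest probe of its gene, and the brightest probes were not called. The Lin7b probe had 6.84 with Rolipram and 4.59 with Benzamide, and the Scn2a probe 6.58 with Rolipram and 4.76 with Benzamide. Neither of these probes was detected on the Benzamide array. Vehicle control 1, the array left out for these calls, had 6.63 in Lin7b and 6.63 in Scn2a, close to the Rolipram values. With all 10 controls the differences of Rolipram minus Benzamide were the same, 2.25 and 1.81, with limma adjusted p-values of 0.235 and 0.228. Among the lower was Cyp4f14, with 6.35 with Rolipram and 8.22 with Benzamide against controls of 7.09 to 7.57 (adjusted p 0.0534 with all 10 controls). Apoc1, an apolipoprotein of glia, was called with both of its probes, and the brighter had 6.49 with Rolipram and 8.82 with Benzamide, against 7.41 to 8.28 in the 9 controls and 7.05 in vehicle control 1, with an adjusted p of 0.15 when all 10 were used.

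Set against the 12 other protective compounds, Rolipram had 0 calls (0%), with 319 probes (1.79%) at an unadjusted p under 0.05 and a smallest limma adjusted p of 1.00. Benzamide had 1 call (0.00561%), Csrp1, which was lower by a log2 difference of -4.00 with an adjusted p of 0.00484, the other protective arrays having 7.46 to 9.15. At an unadjusted p under 0.05 Benzamide had 819 probes (4.6%).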

How the data were processed

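Signals came from Illumina bead arrays of 2 compound arrays, 10 controls and, for scale, 36 other compound arrays. The deposited file holds, per the file headers, an intensity and a detection p-value for each of 46632 probes on each array, and the authors did not normalise these intensities. BeadStudio is named in the submitters' processing notes, and its version is not given in the sources used here. The deposited series matrix holds the same intensities less a constant for each array and served as an alternative. For arrays, their number limits the precision, and 0 columns lacked a sample.

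From these files, background was corrected by normexp on the detection p-values with an offset of 16, arrays were quantile normalised and log2 taken. Probes with a detection p-value under 0.01 on at least 6 arrays were tested with limma (lmFit and eBayes) on the compounds and 10 controls, leaving 9 residual degrees of freedom, and p-values were adjusted by Benjamini-Hochberg over all 17815 probes. A gene is its probe with the highest mean over all arrays, except where another probe is named as such. Symbols come from the platform annotation: 29976 probes have 1 symbol, 10 several and 16646 none, and 0 symbols were updated. Where a gene was not detected in a group, the bright group's mean was set against the lowest intensity of a detected probe on each dim array. List scores are means over members less the control mean. Chip and position come from the sample descriptions. The fit was tested on simulated data.

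Named genes were the called genes (or the 5 smallest p where fewer than 5 passed), up to 4 members of each list by p, and the PDE4 and PARP targets. Other genes were chosen after their values were seen. The compounds and the 31 gene lists were chosen with earlier results of these data known. Alternatives were median scaling, offset 50, other detection filters, the series matrix, the vehicle controls alone, an intensity trend, chip or position as a block, and each array left out. R 4.3.3, limma 3.58.1, data.table (version 1.17.8), Python 3.11.15, numpy 2.4.6, pandas 2.3.3 and matplotlib 3.10.9 were used.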

Additional observations from a re-analysis of the deposited data

Results flagged for a closer look

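In 13 of 94 items looked at (63 genes and 31 list means), 1 control lay far from the other 9 by Dixon's gap test at the 95% level. Vehicle control 1 was the distant one in 11 of these items, and mock control 2 in 2. Chance flags about 1 in 20 independent groups chosen without regard to their values. Some of these genes, such as Chl1 and Abi3, were named because they were called without vehicle control 1, and some lists share genes. The share flagged here therefore cannot be compared with that rate.

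In single genes, vehicle control 1 was high in Chl1 (7.71, the other 9 controls 5.71 to 6.28), Scg2 (7.68, others 5.67 to 6.37), Sncb (8.23, others 5.73 to 6.83), Pde2a (6.84, others 4.66 to 5.38) and Pde4a (6.02, others 4.92 to 5.47). It was low in Abi3 (5.19, others 6.05 to 6.57) and Fcgr4 (6.51, others 7.51 to 8.54). In the list means, which are log2 differences from the control mean, it was high in general neuron markers (0.92, others -0.41 to 0.19), synapse genes (0.90, others -0.29 to 0.09), excitatory neuron markers (0.74, others -0.22 to 0.13) and genes of cyclic AMP synthesis and response (0.19, others -0.07 to 0.04).

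Mock control 2 was low in Tekt1 (8.73, others 9.61 to 10.22) and in the mean of motile cilia genes (-0.68, others -0.20 to 0.35). With Rolipram these were 8.54 and -1.01, below mock control 2 in both.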

How the results depend on the processing

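No paired analysis was possible because each compound has 1 array with no replicate number shared with the controls. Against the main counts (Rolipram 0, Benzamide 4, the pair 2, Benzamide against other protective compounds 1, and 384 and 677 probes by size for Rolipram and Benzamide), the counts moved as follows. Median scaling gave 1 for Benzamide, 0 for the pair, 0 for Benzamide against protective compounds and 1155 by size for Benzamide. An offset of 50 gave 8, 4 and 0 for the same comparisons, and 142 and 286 by size for Rolipram and Benzamide. With no detection filter, 11 probes were called for Rolipram, 202 for Benzamide, 53 for the pair, and 38 and 42 for Rolipram and Benzamide against protective compounds. Probes detected on all 48 arrays gave 6 for the pair, 0 for Benzamide against protective compounds, and 156 and 291 by size. The series matrix gave 4 for the pair, and 185 and 387 by size. The vehicle controls alone gave 1 for Benzamide, 1 for the pair and 1004 by size for Rolipram. Chip as a block gave 0 for Benzamide, 0 for the pair and 0 for Benzamide against protective compounds, and position as a block 0 for Benzamide and 0 for the pair. A size threshold of 1.5 log2 units, chosen after seeing the data as were all settings for the counts by size, gave 42 for Rolipram and 133 for Benzamide.

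Leaving out each control in turn gave 0 to 7 calls for Rolipram, 1 to 55 for Benzamide and 1 to 25 for the pair, the highest each time without vehicle control 1. By size it gave 322 to 545 for Rolipram and 637 to 918 for Benzamide. Leaving out each protective compound gave 0 to 1 for Rolipram, the 1 without MK-801, and 1 to 1 for Benzamide. No result changed sign among these settings where it had passed. The causes were not tested. With 1 array per compound, and dim probes near background, small changes were not detectable.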

Other observations

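Among the 38 compound arrays compared with the same 10 controls, 14 had 0 probes called by limma with Benjamini-Hochberg adjustment, and the range was 0 to 3693 with a median of 2.5. Rolipram was among the 14, Benzamide had 4, and Clofibric acid, with a protection ratio of 1.15, had the 3693. These comparisons share their controls.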
